A study of Homo sapiens with 6 samples.

Results

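HCT116 is a human colorectal carcinoma cell line. The comparison described here was made between HCT116 cells labelled as resistant to 5-fluorouracil (5-FU) and wild-type HCT116 cells, called parental below, neither of which was labelled as transfected. It rests on 2 of the 6 RNA-seq libraries of the series, 1 per line, identified by their sample labels. The comparison and the gene lists were chosen with earlier results of these data known. The other 4 libraries come from cells with the same 2 labels, resistant and wild-type, after a control siRNA or an siRNA against EHMT2, a histone H3 lysine 9 methyltransferase, with 1 library per label and siRNA. The labels do not say whether the resistant cells of the untransfected library and those of the siRNA libraries are the same derived line or culture, so a difference between the pairs cannot be told apart from a difference between such lines. Each of the 6 libraries is labelled as replicate 1 of its group, and no further replicate was given. The labels give no drug dose, no length of exposure, no statement of whether drug was present at harvest, and no statement of whether the resistant cells are 1 clone or a pool. With 1 library per group there was no replicate check. Each value below is the value of 1 library, and no p-value or standard deviation is given. The level of a gene is its FPKM (fragments mapped to a gene, scaled to transcript length and to all mapped fragments of the library), and the ratio is log2 of (FPKM + 1) in resistant over (FPKM + 1) in parental cells. The added 1 makes the ratio understate the difference of genes at low level. Of 19942 genes in the files, 11731 reached 1 FPKM in at least 1 of the 2 untransfected libraries and were counted.

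5-FU is converted in cells to nucleotides that block thymidylate synthase, the enzyme that makes thymidylate for DNA, and that are built into RNA and DNA. Thymidylate synthase is encoded by TYMS, and a high level of it is a classical mark of fluoropyrimidine resistance. Uracil removal, mismatch repair and the p53 response act further downstream, and efflux transporters carry drugs out of cells. HCT116 cells carry wild-type p53 and are deficient in mismatch repair.

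By single genes, the untransfected resistant library stood apart from the other 5 libraries of the series. In it 9 genes were listed at 0 FPKM that had at least 2 FPKM in all 5 others, and no such gene was found for any other library. A further measure gave 97 genes at least 2-fold above all 5 other libraries and 75 genes at least 2-fold below them, whereas each of the others had 3 to 54 such genes above and 2 to 10 below. Across 12310 genes, Pearson's r of log2 levels was 0.946 for the untransfected pair, 0.973 for the control siRNA pair and 0.968 for the EHMT2 siRNA pair. By this measure the library was not alone: its r with the other 5 was 0.914 to 0.949, and that of the parental EHMT2 siRNA library 0.913 to 0.968. The libraries of those pairs are other libraries than the 2 compared here, and their values are given beside the results. Summed FPKM was 376285 in the resistant and 446143 in the parental library, and messages of mitochondrial DNA made up 17.97% and 26.2% of it. The sources used here give no read numbers, so the depth is unknown. Of 16 markers of colorectal epithelium, 9 were at 1 FPKM or more in both libraries. Of 8 fibroblast and 8 leukocyte markers, 1 each was at that level in both, and none of 6 endothelial markers was above 0. The summed levels were 3.86 and 4.51 FPKM for the fibroblast markers and 3.70 and 1.28 FPKM for the leukocyte markers, in resistant and parental cells.

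Among the counted genes, 408 (3.48%) were at least 2-fold higher in resistant cells and 460 (3.92%) at least 2-fold lower. These percentages are the background for every count of list members below. The median ratio of all counted genes was 0.07, with 6610 genes above 0 and 5121 below. The split depended on the scale: with both libraries rescaled to the same summed FPKM, the median of all genes moved to 0.28, and 726 genes were higher and 307 lower, so that 70.3% of those apart were higher in resistant cells against 47.0% before. In the control siRNA pair, 1.6% of 11557 genes were at least 2-fold higher and 0.96% lower. In the EHMT2 siRNA pair, 1.54% of 11937 genes were higher and 1.55% lower.

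**Figure D1:**
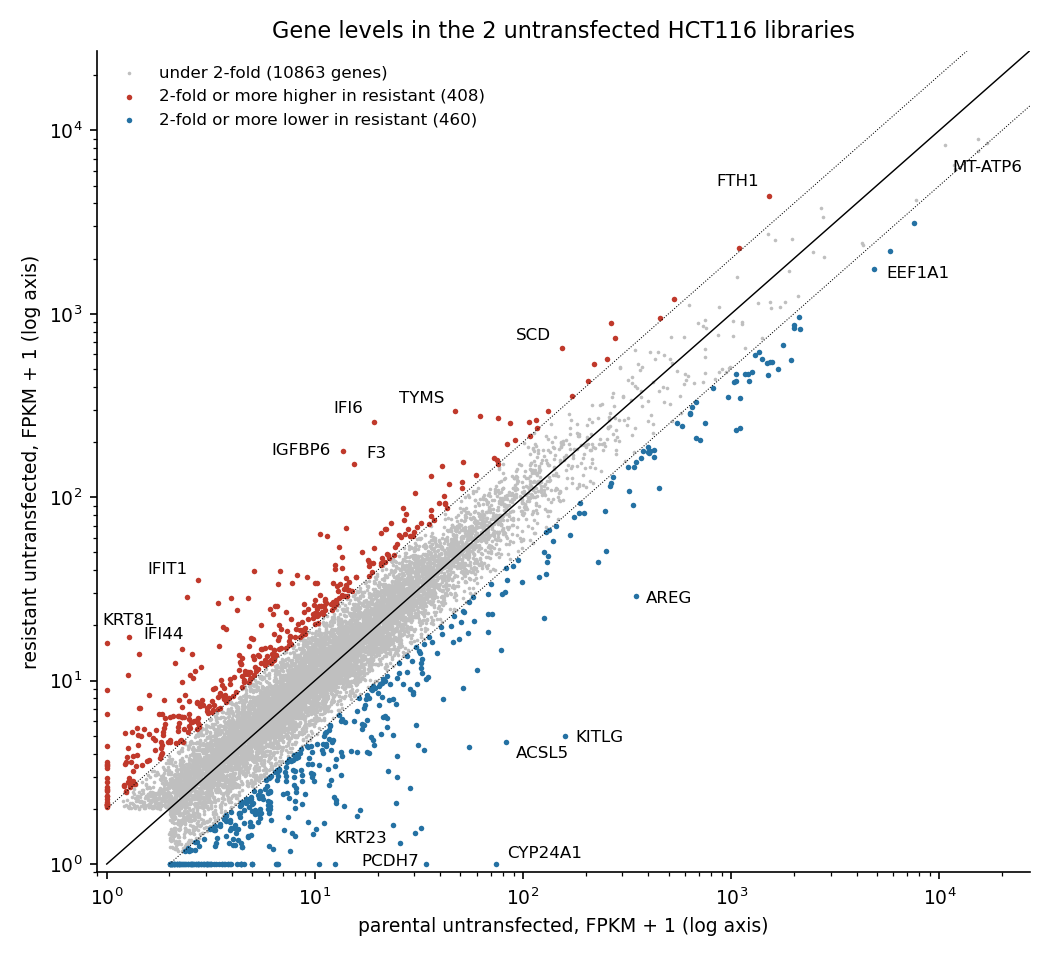
Level of each of the 11731 counted genes in the parental (horizontal axis) and resistant (vertical axis) untransfected library, as FPKM + 1 on log axes, with the line of equality and dotted lines at 2-fold. The 408 red points lie above the upper dotted line and the 460 blue points below the lower one, with points on the bottom edge listed at 0 in the resistant library.

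The genes furthest above parental cells included genes induced by interferon, keratins, and secreted or surface proteins. KRT81, a hair keratin, was at 14.96 FPKM in resistant cells and listed at 0 in parental cells, and its highest level in the 4 siRNA libraries was 0.53 FPKM. IGFBP6, a secreted binder of insulin-like growth factor II, was at 178 FPKM in resistant and 12.6 FPKM in parental cells, a ratio of 3.72. FGFBP1, a carrier that releases fibroblast growth factors from the matrix, was at 27.5 and 1.43 FPKM (ratio 3.55). The resistant library was above all 5 others for each of these 3 genes. F3, tissue factor, which starts the extrinsic clotting cascade, was at 151 and 14.5 FPKM (ratio 3.30), against 14.2 to 27.4 FPKM in the siRNA libraries. KRT7, a keratin of simple epithelia that colonic cells usually lack, was at 25.6 and 2.41 FPKM (ratio 2.96). TSPAN1, a tetraspanin of the cell surface, was at 38.7 and 4.09 FPKM (ratio 2.96). Other genes among the 15 highest with no link to interferon were SYTL2, a vesicle trafficking protein (13.8 and 1.30 FPKM), CYP4F3, a fatty acid and leukotriene hydroxylase (5.58 FPKM and listed at 0), and AL139300.1 (7.94 FPKM and listed at 0). All exonic bases of AL139300.1 are shared with other genes, so its level is uncertain.

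The genes furthest below parental cells encode enzymes, a growth factor for KIT, adhesion molecules and signalling proteins, and several were listed at 0 in the resistant library. CYP24A1, the enzyme that inactivates vitamin D hormone, was listed at 0 in resistant cells and at 73.4 FPKM in parental cells, and the siRNA libraries held 13.6 to 67.3 FPKM. PCDH7, a protocadherin, was listed at 0 and at 33.1 FPKM. KITLG, the ligand of the KIT receptor, was at 4.01 and 159 FPKM, a ratio of -4.99. With control siRNA KITLG was at 110 FPKM in resistant and 127 FPKM in parental cells, so the libraries were closer there. PDE4B, a cAMP phosphodiesterase, was at 0.577 and 31.5 FPKM (ratio -4.36), and SYT1, a calcium sensor of vesicle fusion, at 0.476 and 29.1 FPKM (ratio -4.35). KRT23, a type I keratin, was at 0.303 and 24.6 FPKM (ratio -4.30). ACSL5, which activates long-chain fatty acids and is abundant in intestinal epithelium, was at 3.65 and 81.7 FPKM (ratio -4.15). For all of these genes the resistant untransfected library was the lowest of the 6. PRKACB, which encodes a cAMP-dependent kinase, was at 3.34 and 54.1 FPKM (ratio -3.67), and AREG, amphiregulin, a ligand of the EGF receptor, at 27.8 and 346 FPKM (ratio -3.59). TESC, a calcium-binding regulator of sodium-proton exchange, had a ratio of -3.51, NME4, a mitochondrial nucleoside diphosphate kinase, -3.47, and BEST1, a chloride channel, -3.11. BEST1 was at 0.833 and 14.9 FPKM, but it was also low in both control siRNA libraries, at 0.683 FPKM in resistant and 0.767 FPKM in parental cells. With EHMT2 siRNA it was at 19.3 and 11.2 FPKM. In the untransfected pair, IAH1 and SKAP1 were listed at 0 in resistant cells against 11.52 and 9.48 FPKM. RNF43 was at 0.627 and 22.7 FPKM, with 73.9% of its exonic bases shared with other genes, which leaves its level uncertain. Besides CYP24A1, PCDH7, IAH1 and SKAP1, the genes listed at 0 in this library alone were GPM6A, MGMT, RIOX1, ULK2 and YPEL3. MGMT, which repairs alkylated guanine in DNA, was at 2.92 FPKM in parental cells and at 3.02 to 4.69 FPKM in the siRNA libraries.

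**Figure D2:**
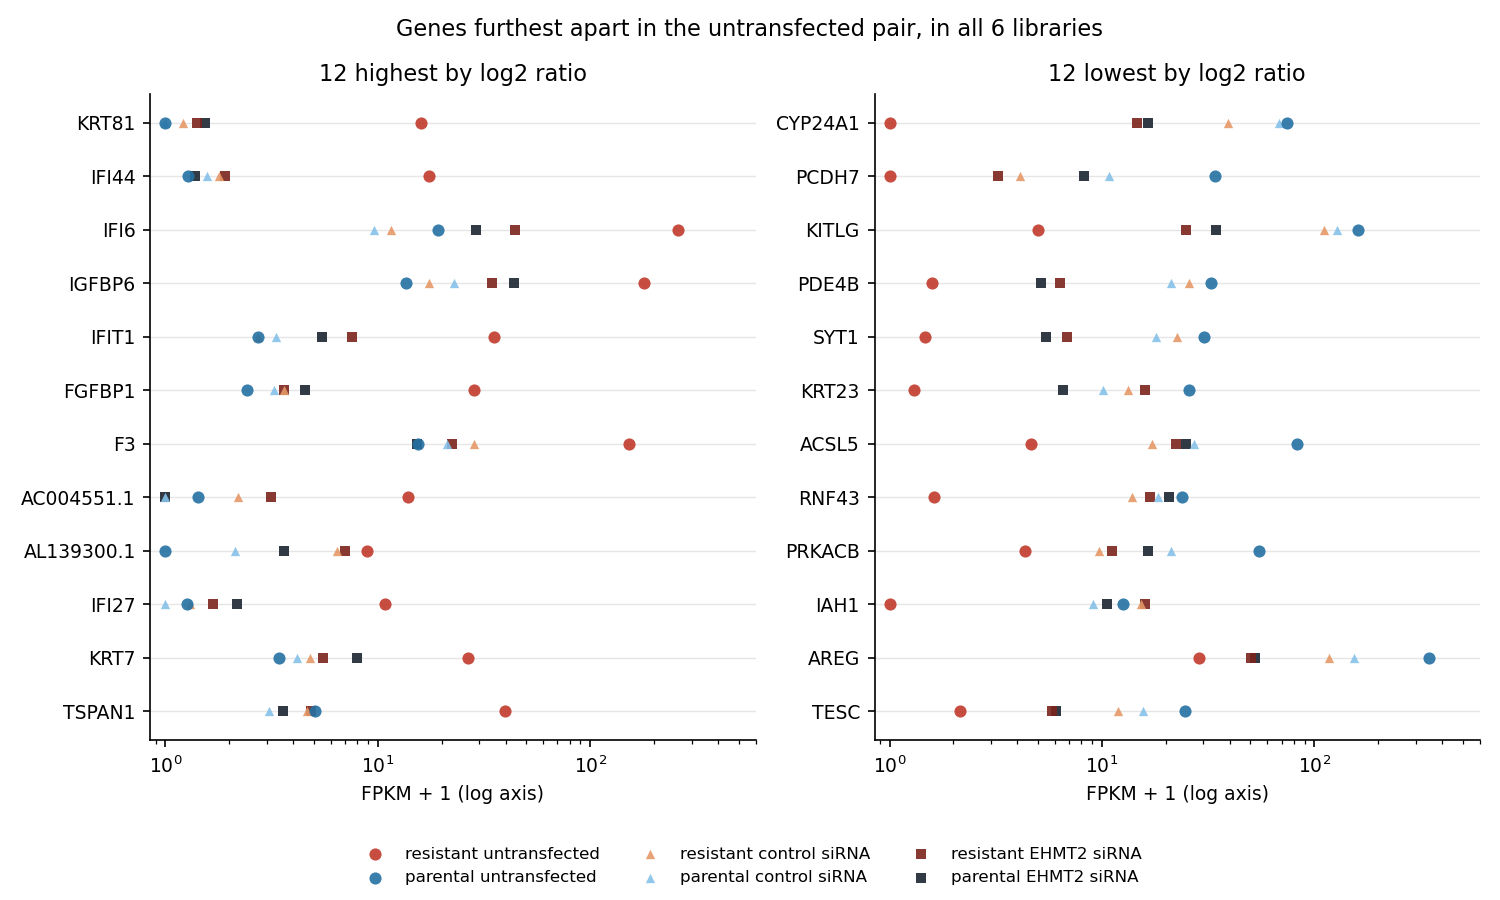
Levels of the 12 genes with the highest and the 12 with the lowest ratio in the untransfected pair, as FPKM + 1 on a log axis, with 1 symbol per library. For KRT81, IGFBP6 and F3 the red circle of the untransfected resistant library lies to the right of the other 5 libraries, and for CYP24A1, KITLG and KRT23 to the left of them.

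Interferon-stimulated genes were higher in the untransfected resistant library as a group. These genes are switched on when interferon receptors activate transcription factors, STAT2 and IRF9 among them, that bind promoters at the interferon-stimulated response element. Of 54 listed genes in the files, 42 were counted, 29 were at least 2-fold higher, none was 2-fold lower and 40 were above 0, with a median ratio of 1.24 against 0.07 over all counted genes. In the control siRNA pair the median of the same genes was 0.19, and in the EHMT2 siRNA pair 0.34. Of the 42 genes, 29 and 37 were above 0 in those pairs, against 47.9% and 45.4% of all counted genes. IFI6 (ENSG00000126709), an inhibitor of cell death and viral replication at chr1:27666061-27672218 (GRCh38), was at 258 FPKM in resistant and 18.1 FPKM in parental cells, a ratio of 3.76. IFI44 was at 16.4 and 0.278 FPKM (ratio 3.76). IFIT1, which binds viral RNA lacking cap methylation, was at 34.4 and 1.74 FPKM (ratio 3.69). OAS1, which the files list as AC004551.1 under the identifier ENSG00000089127 and which makes the activator of RNase L, was at 12.9 and 0.433 FPKM (ratio 3.28). IFI27 was at 9.78 and 0.266 FPKM (ratio 3.09). The untransfected resistant library was the highest of the 6 for each of these 5 genes. OAS1 was also higher in resistant cells with control siRNA (1.20 FPKM, and listed at 0 in parental cells). The same held with EHMT2 siRNA (2.16 FPKM, and listed at 0 in parental cells). The lowest members were IFITM2, at 58.6 and 83.05 FPKM (ratio -0.50), and HERC5, at 4.55 and 4.91 FPKM (ratio -0.09).

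OAS1, listed as AC004551.1, is not shown here, since windows were matched by gene symbol. Promoter windows of IFI44, IFI6, IFIT1 and IFI27 are shown because they carry the element in question. Each is the 250 bases before the RefSeq start (build GRCh38.p14), read 5′ to 3′ on the strand of the gene, with capitals marking each match to GAAANNGAAA on either strand.
IFI44: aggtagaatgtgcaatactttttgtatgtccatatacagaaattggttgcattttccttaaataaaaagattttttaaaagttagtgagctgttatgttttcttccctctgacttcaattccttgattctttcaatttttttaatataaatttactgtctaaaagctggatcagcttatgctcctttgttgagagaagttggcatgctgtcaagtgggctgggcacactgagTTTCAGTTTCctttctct
IFI6: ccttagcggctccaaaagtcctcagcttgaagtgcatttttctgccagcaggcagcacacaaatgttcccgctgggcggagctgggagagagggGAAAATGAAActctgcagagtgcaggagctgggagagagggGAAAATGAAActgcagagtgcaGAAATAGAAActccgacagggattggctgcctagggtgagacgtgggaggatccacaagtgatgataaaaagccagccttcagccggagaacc
IFIT1: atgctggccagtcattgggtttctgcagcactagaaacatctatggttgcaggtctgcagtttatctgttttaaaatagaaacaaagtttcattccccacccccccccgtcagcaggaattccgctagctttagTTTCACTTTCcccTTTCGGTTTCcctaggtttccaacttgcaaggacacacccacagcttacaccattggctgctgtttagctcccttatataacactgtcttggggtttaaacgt
IFI27: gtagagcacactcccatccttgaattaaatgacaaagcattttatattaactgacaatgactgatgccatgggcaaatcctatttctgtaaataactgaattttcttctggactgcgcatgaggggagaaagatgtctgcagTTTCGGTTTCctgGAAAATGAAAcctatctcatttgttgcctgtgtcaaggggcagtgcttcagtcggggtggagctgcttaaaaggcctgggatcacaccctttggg
The windows lie at chr1:78649539-78649788 (plus strand), chr1:27672193-27672442 (minus strand), chr10:89392373-89392622 (plus strand) and chr14:94110486-94110735 (plus strand). The motif was found in 22 of the 34 counted interferon-stimulated genes that have a window (64.7%). Over all 35116 windows its share was 3.02%. The 22 genes with a match had a median ratio of 1.23 and the 12 without one 1.13. A match is a run of letters and not a measured binding site.

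STAT2 and IRF9, transcription factors of the pathway, were themselves higher. The genes of the pathway given here were chosen for their role after their values were seen. STAT2 was at 28.2 FPKM in resistant and 12.5 FPKM in parental cells (ratio 1.11). IRF9 was at 14.5 and 2.48 FPKM (ratio 2.15), with an uncertain level since at least 25% of its exonic bases are shared with other genes. ISG15, a ubiquitin-like modifier, was at 278 and 61.3 FPKM (ratio 2.16), against 42.4 to 84.7 FPKM in the siRNA libraries. The RNA sensor RIG-I, listed as DDX58, was at 14.4 and 3.81 FPKM (ratio 1.68). MX1, an antiviral GTPase that is often used as a marker of the response, was at only 1.05 and 0.353 FPKM.

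The listed receptors, adaptors and feedback genes around this response were not shifted as a group, although the sensor RIG-I given above was higher. Of 15 counted members of that list none was 2-fold apart, and the median ratio was 0.02. IFNAR1, a subunit of the type I interferon receptor, was at 6.81 and 6.73 FPKM. The kinase gene JAK2 was the highest at 3.59 and 1.69 FPKM (ratio 0.77), followed by MAVS, the mitochondrial adaptor of RNA sensing, at 23.7 and 14.4 FPKM (ratio 0.68). IFNGR2 was the lowest at 16.4 and 26.7 FPKM (ratio -0.67), next to SOCS3, a feedback inhibitor, at 8.96 and 14.02 FPKM (ratio -0.59). The interferon beta gene IFNB1 was listed at 0 in all 6 libraries. The lambda interferons IFNL1, IFNL2 and IFNL3 were listed at 0.616, 0.233 and 0.275 FPKM in the untransfected resistant library and at 0 in the other 5, below the 1 FPKM limit for counting. Antigen presentation by MHC class I, which interferon also induces, had a median ratio of 0.09 over 19 members, with 1 member 2-fold higher. That member was NLRC5, the transactivator of class I genes (5.07 and 1.70 FPKM, ratio 1.17), and PSME2, a proteasome activator subunit, followed at 102 and 53.6 FPKM (ratio 0.92). HLA-B and HLA-E were lower, at 66.8 and 109 FPKM and at 46.4 and 75.8 FPKM, each with a ratio of -0.70.

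Genes of thymidylate and deoxynucleotide supply, the pathway that 5-FU blocks, had a median ratio of 0.37 over 24 members, with 2 members 2-fold higher and none 2-fold lower. TYMS was at 294 FPKM in resistant and 46.1 FPKM in parental cells, a ratio of 2.65. Its exons share 46.6% of their bases with other genes, and the sources used here do not state whether counting used strand, so the level is uncertain. In the siRNA pairs the order was the other way round, with 61.2 FPKM in resistant and 92.4 FPKM in parental cells after control siRNA, and 24.6 and 42.1 FPKM after EHMT2 siRNA. RRM2, the regulated subunit of ribonucleotide reductase, was at 92.5 and 41.0 FPKM (ratio 1.16). Among the lowest members was MTHFD2, a mitochondrial folate enzyme (75.2 and 102 FPKM, ratio -0.43, uncertain because of shared exonic bases). TK1, the thymidine salvage kinase, was at 67.2 and 55.3 FPKM (ratio 0.28).

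Genes that take up, activate and break down fluoropyrimidines differed less. Their median was 0.18 over 16 members, with 2 members 2-fold higher. These were NT5E, a surface nucleotidase (101 and 40.8 FPKM, ratio 1.28), and CDA, cytidine deaminase (30.7 and 12.8 FPKM, ratio 1.20). The lowest were PPAT (14.03 and 19.4 FPKM, ratio -0.44) and NT5C (38.9 and 52.1 FPKM, ratio -0.41, uncertain because of shared exonic bases). UMPS, which converts 5-FU directly to its nucleotide, was at 5.94 and 5.97 FPKM (ratio -0.01). TYMP, thymidine phosphorylase, was at 38.7 and 26.3 FPKM (ratio 0.54), and UPP1, uridine phosphorylase, at 14.97 and 17.3 FPKM (ratio -0.19, and 0.04 on rescaling to the same sum). DPYD, the enzyme that degrades 5-FU, was under 1 FPKM in both libraries, at 0.317 and 0.583 FPKM. None of 16 counted genes of uracil removal and mismatch repair was 2-fold apart, with a median of 0.13. MSH6 was the highest of them (20.7 and 11.1 FPKM, ratio 0.85) and APEX1, which cuts abasic sites, the lowest (82.7 and 129 FPKM, ratio -0.63). Among 9 counted ABC efflux transporters none was 2-fold higher and 3 were 2-fold lower, with a median of -0.13. The median turned to 0.27 among members at 5 FPKM or more and to 0.07 with the libraries rescaled to the same sum. ABCC2 was at 3.04 and 17.1 FPKM (ratio -2.17), and ABCG1 and ABCB1 were listed at 0 in resistant cells against 1.83 and 1.25 FPKM. The highest members, ABCC10 and ABCC1, had ratios of 0.40 and 0.29.

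Cholesterol synthesis genes as a group were higher in resistant cells in all 3 pairs. They are controlled together by SREBP2, which INSIG1 holds back when sterols are plentiful. Of 30 members, 13 were at least 2-fold higher, none was 2-fold lower and 28 were above 0, and the median ratio was 0.87. In the control siRNA pair the median was 0.68 and in the EHMT2 siRNA pair 0.54, with 28 and 27 of the 30 members above 0. INSIG1 was at 24.5 FPKM in resistant and 5.45 FPKM in parental cells (ratio 1.99). With control siRNA it was at 43.1 and 11.9 FPKM, and with EHMT2 siRNA at 34.6 and 12.1 FPKM, so its levels in the 3 resistant libraries did not overlap those in the 3 parental ones. HMGCS1, which makes the precursor of mevalonate, was at 32.9 and 9.24 FPKM (ratio 1.73). With control siRNA it was at 32.03 and 18.4 FPKM, while with EHMT2 siRNA it was level, at 19.4 and 18.7 FPKM. The lowest members were GGPS1 (ratio -0.19, uncertain because of shared exonic bases) and PMVK (ratio -0.10). In fatty acid synthesis and desaturation, 3 of 22 members were 2-fold higher and 1 was lower, with a median of 0.33. SCD, the stearoyl-CoA desaturase, was at 650 and 152 FPKM (ratio 2.09), at 756 and 188 FPKM with control siRNA and at 307 and 89.4 FPKM with EHMT2 siRNA. FASN, fatty acid synthase, was at 120 and 50.2 FPKM (ratio 1.24). The member that was lower was ACSL5, described above.

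Genes of DNA replication, mitosis and recombination repair were higher in resistant cells in this pair and lower in both siRNA pairs. Of 51 replication genes, 7 were at least 2-fold higher, none was 2-fold lower and 47 were above 0. The median ratio was 0.62, against -0.50 in the control siRNA pair and -0.37 in the EHMT2 siRNA pair, where 2 and 3 members were above 0. POLE, the leading-strand polymerase, was at 31.7 FPKM in resistant and 11.7 FPKM in parental cells (ratio 1.36), and at 10.1 and 23.1 FPKM with control siRNA. POLA2, a primase-polymerase subunit, was at 5.45 and 1.09 FPKM (ratio 1.62, uncertain because of shared exonic bases). The lowest members were RPA1 (20.4 and 26.4 FPKM, ratio -0.35) and TIPIN (ratio -0.13). Mitotic genes had a median of 0.49, with 47 of 49 members above 0 and 3 at least 2-fold higher. NDC80, a kinetochore protein encoded on the short arm of chromosome 18, was at 66.6 and 13.03 FPKM (ratio 2.27), and its partner SPC25, on chromosome 2, at 17.6 and 6.31 FPKM (ratio 1.35). The lowest were PRC1 (ratio -0.07) and CDC25B (ratio -0.03). The mitotic median was -0.44 with control siRNA and -0.58 with EHMT2 siRNA. Recombination and crosslink repair had a median of 0.39 over 41 members, with 4 members 2-fold higher, led by RAD54L (12.2 and 4.09 FPKM, ratio 1.37, uncertain because of shared exonic bases) and XRCC2 (7.20 and 2.61 FPKM, ratio 1.18). RBBP8, which starts end resection, was the lowest at 16.9 and 31.4 FPKM (ratio -0.86).

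The G1/S regulators and the p53 targets were also shifted upward in the untransfected pair. G1/S cyclins, kinases and inhibitors had a median of 0.54 over 25 members, with 4 at least 2-fold higher and none lower. CDKN2C, an inhibitor of CDK4 and CDK6, was at 4.89 and 1.23 FPKM (ratio 1.40), and CCND1, cyclin D1, at 263 and 114 FPKM (ratio 1.20). CDKN1C and RBL2, both brakes on the cycle, were the lowest (ratios -0.80 and -0.60). The p53 targets had a median of 0.44, with 4 of 32 members 2-fold higher and none lower. MDM2, the ubiquitin ligase of p53, was at 24.8 and 8.92 FPKM (ratio 1.38), above the 13.8 to 17.9 FPKM of the siRNA libraries. DDB2, a sensor of ultraviolet damage, was at 32.1 and 13.1 FPKM (ratio 1.23). CDKN1A, which encodes p21, was at 151 and 74.4 FPKM (ratio 1.01). It fell below the 2-fold limit, at 0.94, when the ratios were centred on the median of all genes, and at 0.93 after quantile normalisation. SESN2 and BBC3 were the lowest p53 targets (ratios -0.84 and -0.58). In the control siRNA and EHMT2 siRNA pairs, the G1/S median was -0.20 and -0.22. That of the p53 targets was 0.14 and -0.11. Whether the cultures differed in the share of dividing cells was not tested, and in bulk RNA fewer cells of a kind and less RNA per cell cannot be told apart.

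**Figure D3:**
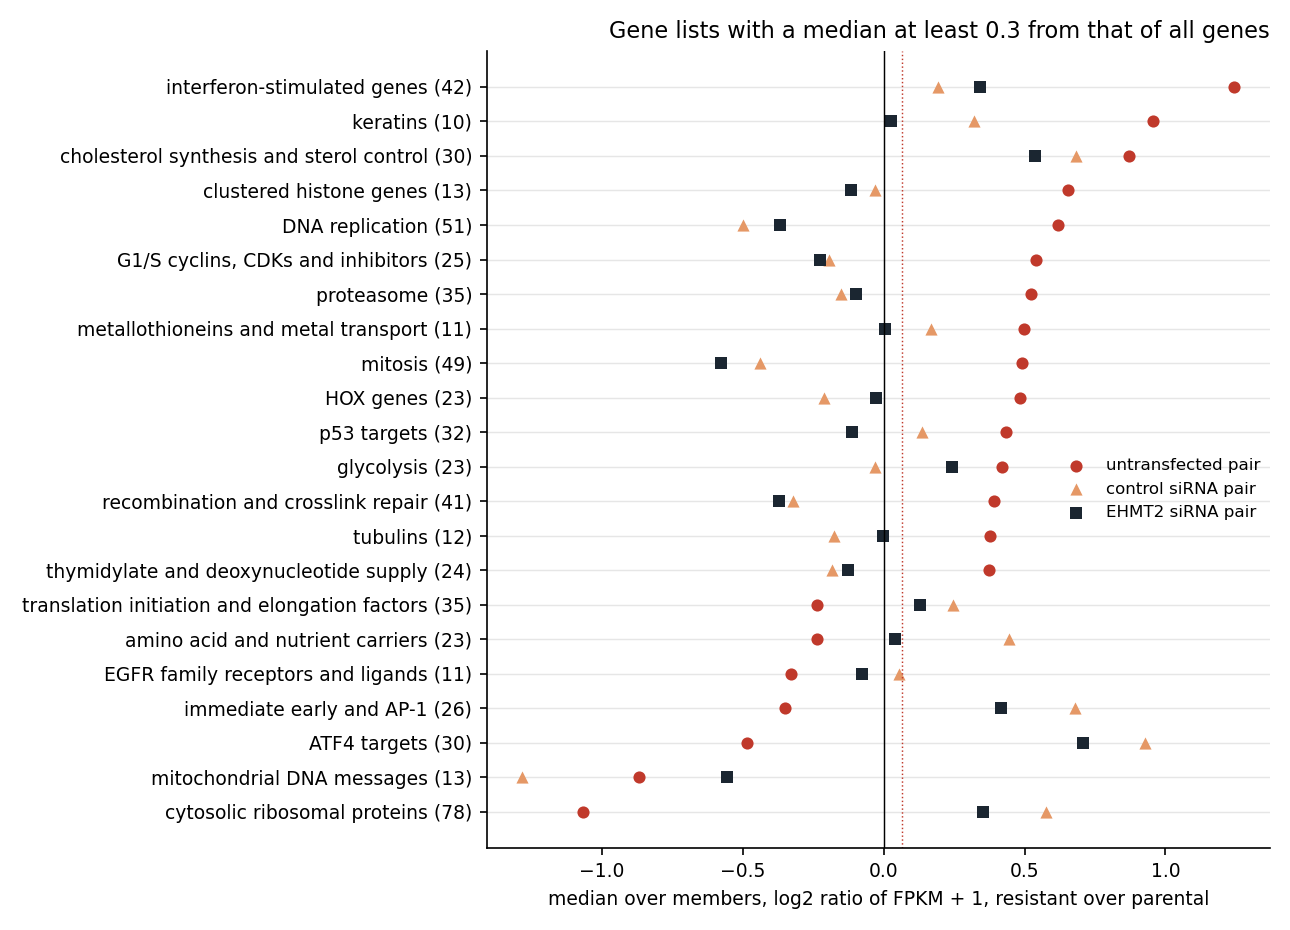
Median log2 ratio of each of the 22 gene lists whose median in the untransfected pair lay at least 0.3 from that of all counted genes (dotted line), in the 3 line pairs, with the number of counted members in brackets. Cholesterol synthesis lies to the right of 0 in all 3 pairs, while DNA replication and mitosis lie to the right in the untransfected pair and to the left in the siRNA pairs, and cytosolic ribosomal proteins and ATF4 targets the reverse.

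Cytosolic ribosomal proteins were lower in resistant cells. Of 78 members, 42 were at least 2-fold lower, none was 2-fold higher and 76 were below 0. The median ratio was -1.07 (-0.67 after quantile normalisation), while it was 0.58 in the control siRNA pair and 0.35 in the EHMT2 siRNA pair, where 77 and 76 of the 78 members were above 0. RPL13 was at 230 FPKM in resistant and 1048 FPKM in parental cells (ratio -2.18), and RPL23 at 89.2 and 335 FPKM (ratio -1.90). The exceptions were FAU, which encodes a ribosomal protein fused to a ubiquitin-like protein (312 and 273 FPKM, ratio 0.19), and RPS26 (191 and 188 FPKM, ratio 0.02). With control siRNA, RPL13 was at 1002 FPKM in resistant and 652 FPKM in parental cells. Among 97 genes with a mean of 500 FPKM or more, 44 were ribosomal protein genes and 13 were mitochondrial messages. Their median ratio was -0.75, and without those 2 kinds it was 0.19 over 40 genes. Mitochondrial ribosomal proteins, which are encoded by nuclear genes, had a median of 0.01 over 78 members with none 2-fold apart, and ribosome biogenesis factors a median of -0.03 over 35 members with none 2-fold apart, which was 0.21 on rescaling to the same sum.

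Translation factors were spread more widely around 0. Of 35 initiation and elongation factors, 5 were at least 2-fold lower and none higher, with a median of -0.24 that moved to 0.01 when the libraries were rescaled to the same sum. EEF1G was at 461 and 1496 FPKM (ratio -1.70, uncertain because of shared exonic bases), and EEF2, the translocation factor, at 348 and 1106 FPKM (ratio -1.67). EEF1A1, which delivers aminoacyl-tRNA to the ribosome, was at 1745 and 4835 FPKM (ratio -1.47), and at 5940 and 3036 FPKM in the control siRNA pair. EIF4B, an initiation factor, was at 145 and 340 FPKM (ratio -1.22). EIF5 and EIF4H were the highest (ratios 0.62 and 0.37). Messages of ribosomal proteins and elongation factors often begin with a C and a run of pyrimidines, the 5′ terminal oligopyrimidine tract, through which mTOR regulates their translation. The first 20 transcribed bases at the RefSeq start are shown for 6 genes to set low and high members side by side, with capitals marking the C and the pyrimidines that follow it without a break where there are at least 4 of them.
RPL13: CTTTCCgctcggctgttttc
EEF2: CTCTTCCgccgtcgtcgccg
EEF1A1: CTTTTTCgcaacgggtttgc
EIF4B: CTTTTgcgttctctttccct
EEF1G: actttgcggcagcgccgaga
EIF5: agtcagagcgagaacattcc
These stretches lie at chr16:89560682-89560701 (plus strand), chr19:3985444-3985463 (minus strand), chr6:73521013-73521032 (minus strand), chr12:53006456-53006475 (plus strand), chr11:62573872-62573891 (minus strand) and chr14:103334237-103334256 (plus strand) in GRCh38.p14. A start with a C and 4 bases that are each C or T was found in 4.07% of all 35116 RefSeq starts, in 7.60% of the 9279 counted genes with an entry, and in 47 of 62 ribosomal protein genes with an entry (75.8%). All 10 translation factors with such a start were below 0, with a median of -0.65, while the 17 without it had a median of 0.00 and 9 of them were below 0. Among ribosomal proteins there was no such division, with medians of -1.07 over the 47 genes with the start and -1.08 over the 15 without. The 648 other counted genes with such a start had a median of -0.01, against 0.08 for the 8542 without. These windows were searched after the values had been seen.

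ATF4 targets, which supply amino acids under stress and include several aminoacyl-tRNA synthetases, were lower in this pair and higher in both siRNA pairs. Of 30 counted members, 6 were at least 2-fold lower, none was higher and 27 were below 0, with a median of -0.48. In the control siRNA pair all 30 were above 0 with a median of 0.93, and in the EHMT2 siRNA pair 29 were above 0 with a median of 0.71. TRIB3, a pseudokinase that restrains ATF4, was at 13.6 FPKM in resistant and 77.0 FPKM in parental cells (ratio -2.41), and CHAC1, which degrades glutathione, at 6.33 and 19.3 FPKM (ratio -1.47). DDIT4 (ratio 0.12, uncertain because of shared exonic bases) and ATF5 (ratio 0.07) were the highest. Aminoacyl-tRNA synthetases had a median of -0.16 over 20 members (0.08 on rescaling), with 3 at least 2-fold lower, led by AARS (56.9 and 139 FPKM, ratio -1.27) and CARS (22.7 and 50.8 FPKM, ratio -1.13). Carriers of amino acids and nutrients had a median of -0.24 that moved to 0.01 on rescaling, with 3 of 23 lower, led by SLC43A1 (0.693 and 3.87 FPKM, ratio -1.52) and SLC7A2 (0.899 and 4.24 FPKM, ratio -1.47). Among chaperones of the endoplasmic reticulum none of 21 was 2-fold apart, and HSPA5, the main chaperone there, was the lowest at 157 and 308 FPKM (ratio -0.97). Cytosolic heat shock proteins were on the other side, with 4 of 32 members 2-fold higher and a median of 0.26. HSPA1A was at 61.4 and 24.4 FPKM (ratio 1.29), and in the control siRNA pair at 26.4 and 71.8 FPKM.

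**Figure D4:**
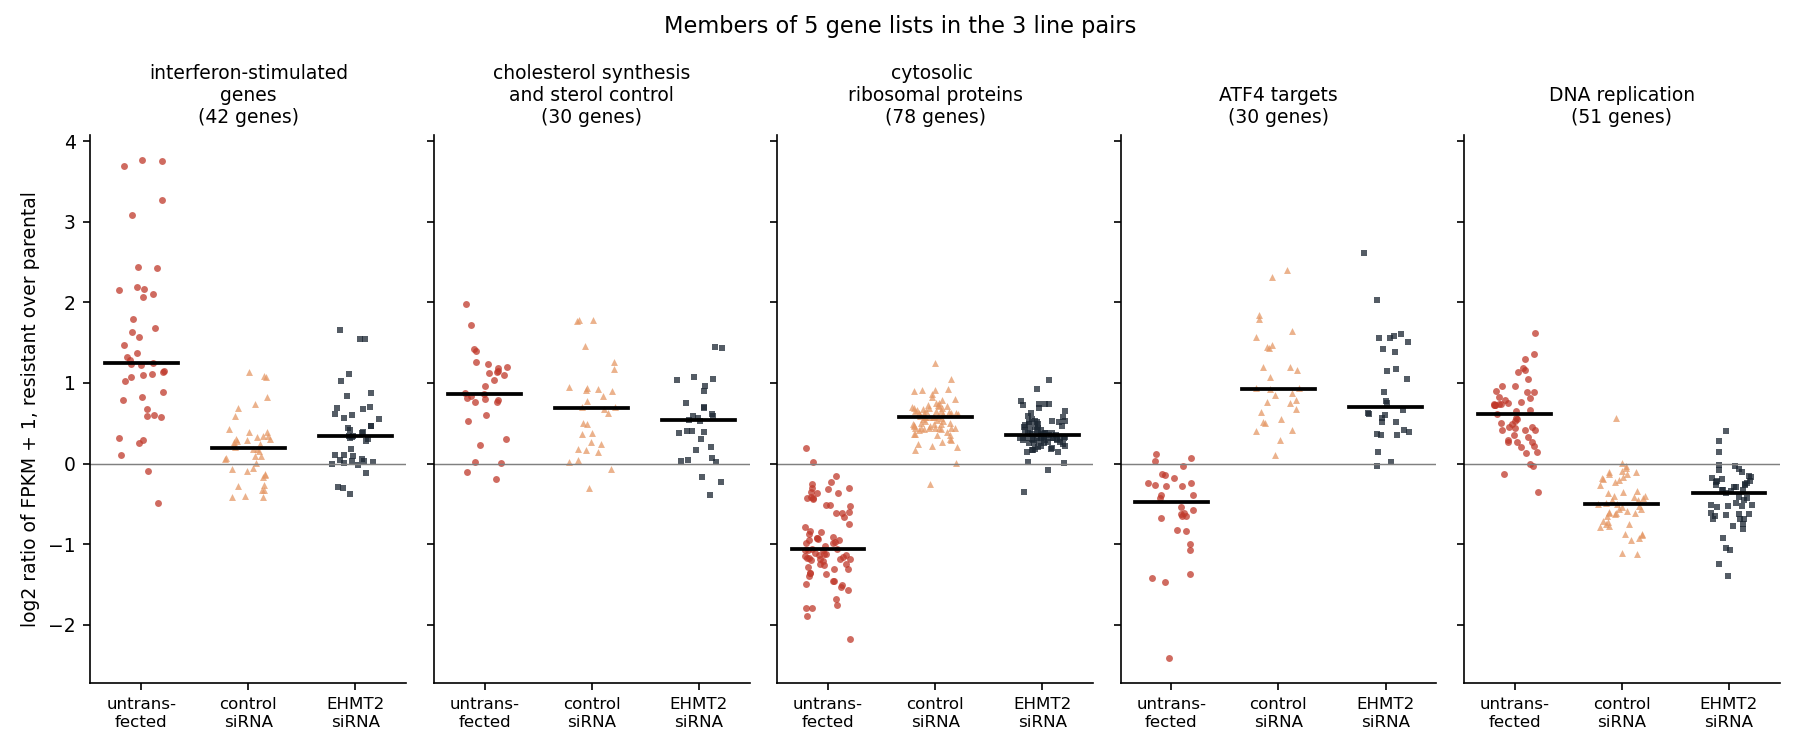
Log2 ratio of each counted member of 5 gene lists in the untransfected, control siRNA and EHMT2 siRNA pairs, with 1 point per gene, spread sideways for visibility, and bars at the medians. Ribosomal proteins and ATF4 targets lie mostly below 0 in the untransfected pair and above 0 in the siRNA pairs, and DNA replication genes the reverse.

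A pair of EGF receptor ligands, AREG and EREG, was lower, while another ligand, TGFA, and the receptor were not. Of 11 counted members of the family list, 3 were at least 2-fold lower and none was higher, with a median of -0.33. The third was ERRFI1, a feedback inhibitor of the receptor, at 107 and 321 FPKM (ratio -1.58). EREG, epiregulin, was at 20.99 FPKM in resistant and 124 FPKM in parental cells (ratio -2.51), beside AREG, which lies close to it on chromosome 4 and is given above. TGFA was at 27.1 and 15.01 FPKM (ratio 0.81) and EGFR itself at 20.5 and 12.3 FPKM (ratio 0.70). In the control siRNA pair EREG was at 65.3 and 71.7 FPKM and AREG at 116 and 153 FPKM. Output genes of the ERK pathway moved both ways, with 3 of 21 at least 2-fold higher, 2 lower and a median of -0.16, which was 0.03 on rescaling to the same sum and 0.04 without uncertain genes. EMP1, a membrane protein, was at 38.4 and 5.83 FPKM (ratio 2.53), and FOSL1, an AP-1 subunit, at 253 and 86.0 FPKM (ratio 1.55). DUSP5, a nuclear ERK phosphatase, was at 22.2 and 69.9 FPKM (ratio -1.61), and SPRY4, a feedback inhibitor, at 17.02 and 39.95 FPKM (ratio -1.18). Immediate early genes had a median of -0.35 over 26 members, with 4 lower and 1 higher, against 0.68 in the control siRNA pair and 0.41 in the EHMT2 siRNA pair. NR4A2 was at 5.23 and 21.3 FPKM (ratio -1.84) and EGR3 at 0.270 and 3.13 FPKM (ratio -1.70). In G protein signalling, 5 of 35 members were at least 2-fold lower, among them PDE4B and PRKACB given above, and 1 was higher, PDE4D, at 1.93 and 0.285 FPKM (ratio 1.19). A pair of cAMP phosphodiesterases thus differed in opposite directions.

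WNT targets and intestinal stem cell genes had a median of 0.03 over 20 members, so the group as a whole was not shifted, but 3 members were far apart. DKK1, a secreted WNT inhibitor, was at 147 FPKM in resistant and 39.9 FPKM in parental cells (ratio 1.86). NOTUM, an enzyme that inactivates WNT proteins, was at 1.599 and 7.08 FPKM (ratio -1.64), and RNF43, which removes WNT receptors from the surface, was at 0.627 and 22.7 FPKM (ratio -3.87). Of 38 listed genes of intestinal differentiation only 11 were counted, with 3 at least 2-fold lower, 1 higher and a median of -0.16. That median turned to 0.50 among members at 5 FPKM or more and to 0.10 on rescaling to the same sum. HNF4A, a transcription factor of gut epithelium, was listed at 0 in all 3 resistant libraries. In the 3 parental libraries HNF4A was at 1.68, 1.69 and 1.95 FPKM, in the order untransfected, control siRNA and EHMT2 siRNA. MUC1, a membrane mucin, was at 3.69 and 1.25 FPKM (ratio 1.06), and KLF5 at 46.9 and 27.9 FPKM (ratio 0.73).

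Structural genes of epithelial cells held members far apart in both directions. Keratins had a median of 0.95 over 10 counted members, with 5 at least 2-fold higher, led by KRT81 and KRT7, and 1 lower, KRT23. KRT10 was the second lowest (ratio -0.20). The median was 0.61 with no limit on FPKM and 1.32 without genes of chromosomes 17 and 18. The keratin median in the control siRNA pair was 0.32 and in the EHMT2 siRNA pair 0.03. Among 24 integrins, laminins and matrix receptors, 4 were 2-fold higher and 3 lower. LAMA3 and LAMB3, chains of the main laminin of the epidermal basement membrane, were at 10.3 and 1.67 FPKM (ratio 2.09) and at 46.5 and 12.5 FPKM (ratio 1.82). LAMB1, a chain of other laminins, was at 3.47 and 30.4 FPKM (ratio -2.81), and COL18A1 at 6.45 and 23.4 FPKM (ratio -1.71). In mesenchymal and EMT genes, 4 of 16 counted members were higher and 2 lower. SNAI2 was at 3.43 FPKM and listed at 0 in parental cells, and THBS1 at 5.26 and 0.902 FPKM (ratio 1.72). SPARC and TWIST1 were listed at 0 in resistant cells against 3.41 and 1.83 FPKM. Of 34 adhesion and junction genes, 2 were higher and 2 lower, with MAL2 at 117 and 42.9 FPKM (ratio 1.43), and CLDN2 and NECTIN3 at ratios of -1.39 and -1.28. Among NF-kB targets, ICAM1, an adhesion receptor for leukocytes, was listed at 0 in all 3 resistant libraries and at 2.70, 1.48 and 2.57 FPKM in the parental ones.

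Messages for iron storage and glycolysis were among the largest increases in FPKM, and most mitochondrial messages among the largest decreases, while MT-ND6 and MT-ND5 were among the 10 largest increases. The largest increase in FPKM was that of FTH1, the ferritin heavy chain, at 4378 FPKM in resistant and 1517 FPKM in parental cells (ratio 1.53, uncertain because of shared exonic bases), and FTL, the light chain, was at 2286 and 1091 FPKM (ratio 1.07). Both were below those resistant levels in all 4 siRNA libraries. Among NRF2 targets, 5 of 26 were 2-fold higher and 1 lower, with OSGIN1 at 16.3 and 5.72 FPKM (ratio 1.36) and NQO1 at 139 and 235 FPKM (ratio -0.76), so members lay on both sides of 0. Glycolysis genes had a median of 0.42 over 23 members, with 4 higher and none lower. PKM was at 1208 and 528 FPKM (ratio 1.19) and ALDOA at 733 and 276 FPKM (ratio 1.40, uncertain because of shared exonic bases). GAPDH was at 2535 and 1627 FPKM (ratio 0.64). S100A6, a calcium-binding protein, was at 2712 and 1508 FPKM (ratio 0.85, past 2-fold at 1.09 on rescaling and 1.34 after quantile normalisation), and PTMA at 2559 and 1963 FPKM (ratio 0.38). Proteasome genes had a median of 0.52 over 35 members with 30 above 0, but only USP14, encoded on the short arm of chromosome 18, was 2-fold higher, at 60.8 and 10.4 FPKM (ratio 2.44). ATG7, an E1-like enzyme of autophagy, was at 23.3 and 3.21 FPKM (ratio 2.53), above the 3.58 to 5.77 FPKM of the siRNA libraries. CTSB and ATG12 were the lowest of the autophagy and lysosome list (ratios -1.32 and -1.45).

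The 13 messages of mitochondrial DNA had a median ratio of -0.87, with 11 below 0, and the median was -0.16 after quantile normalisation. MT-CYB was at 2187 and 5803 FPKM (ratio -1.41) and MT-ND2 at 3121 and 7554 FPKM (ratio -1.27). MT-ATP6, the largest decrease in FPKM of all genes, was at 8535 FPKM in resistant and 16975 FPKM in parental cells (ratio -0.99), and MT-CO1 at 8313 and 10682 FPKM (ratio -0.36). MT-CO3, MT-ATP8, MT-ND4L, MT-ND4 and MT-CO2 had ratios of -0.98, -0.95, -0.90, -0.87 and -0.76. MT-ND5 and MT-ND6 were the exceptions, at 3385 and 2755 FPKM (ratio 0.30) and at 3767 and 2696 FPKM (ratio 0.48). MT-ND6 is the one protein gene on the other strand of mitochondrial DNA, and MT-ND5 lies next to it. Medians were also below 0 in the siRNA pairs, at -1.28 and -0.56. After quantile normalisation MT-CO2 stood at 0.28, MT-ND4 at 0.00 and MT-CO1 at 0.53, so the direction of these 3 messages depended on the scale. Nuclear-encoded subunits of the respiratory chain had a median of 0.24 over 78 members. The 1 that was 2-fold higher, NDUFV2 (ratio 1.82, uncertain because of shared exonic bases), lies on the short arm of chromosome 18, and the 1 that was lower, NDUFB5, was at 9.34 and 23.7 FPKM (ratio -1.26).

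Most chromatin genes stayed within 2-fold in this pair, as did 10863 of all 11731 counted genes. EHMT2, the target of the siRNA in the other libraries, was at 27.3 FPKM in resistant and 19.8 FPKM in parental untransfected cells (ratio 0.44), and at 19.5 and 31.7 FPKM in the control siRNA pair, so the order of the lines was not the same in both. None of 26 counted genes of H3K9 methylation was 2-fold apart, with a median of 0.14. SUV39H1 (5.97 and 3.26 FPKM, ratio 0.71) and EHMT1, the partner of EHMT2 (20.04 and 12.8 FPKM, ratio 0.61), were the highest, and KDM1A the lowest (ratio -0.33). DNA methylation genes had a median of 0.35 over 12 members, with 11 above 0 and none 2-fold apart, led by DNMT1 at 58.7 and 31.4 FPKM (ratio 0.88). In the polycomb and remodelling list SMARCA2 was 2-fold higher (4.93 and 1.56 FPKM, ratio 1.21), with EZH2 next at 36.1 and 18.9 FPKM (ratio 0.90). Of 60 listed clustered histone genes 13 were counted, with a median of 0.65, 12 above 0 and 2 at least 2-fold higher.

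Ratios differed by chromosome. The 41 counted genes of the short arm of chromosome 18 were all above 0, with a median of 1.603, and 37 were at least 2-fold higher, which makes up most of the 43 such genes of the whole chromosome. The median of the same genes was 0.14 in the control siRNA pair and 0.01 in the EHMT2 siRNA pair. TYMS, NDC80, USP14, NDUFV2, TUBB6 and MYL12B lie there, and MYL12B, a myosin light chain, was at 887 and 264 FPKM (ratio 1.74). Chromosome 17 was shifted the other way. Of its 735 counted genes, 495 (67.3%) were below 0 and the median was -0.20, against medians from -0.05 to 0.14 over the 20 other autosomes, on which 37.8% to 57.2% of genes were below 0. The short arm of chromosome 17 had a median of -0.28 over 208 genes and the long arm -0.16 over 527. The whole chromosome was also below 0 in the siRNA pairs, by a smaller amount, with medians of -0.10 (control siRNA) and -0.07 (EHMT2 siRNA). It was not the lowest there: chromosome 16 had medians of -0.12 and -0.12 in these pairs, and chromosome 19 had -0.06 and -0.11. The medians of all counted genes were -0.02 and -0.04. Set against each gene's median over the 6 libraries, chromosome 17 stood at -0.15 in the untransfected resistant library and at -0.01 in the untransfected parental one, with -0.02 to 0.12 in the siRNA libraries. Genes on chromosome 17 made up 47 of the 460 lower genes (10.2%) and 11 of the 408 higher ones (2.70%). Among all 11731 counted genes, 735 were on that chromosome. DNA copy number was not measured in these files. Chromosome 17 was singled out after its values had been seen. Only chromosomes 17 and 18 were divided by arm, so the short arms of the others were not set beside that of chromosome 18.

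**Figure D5:**
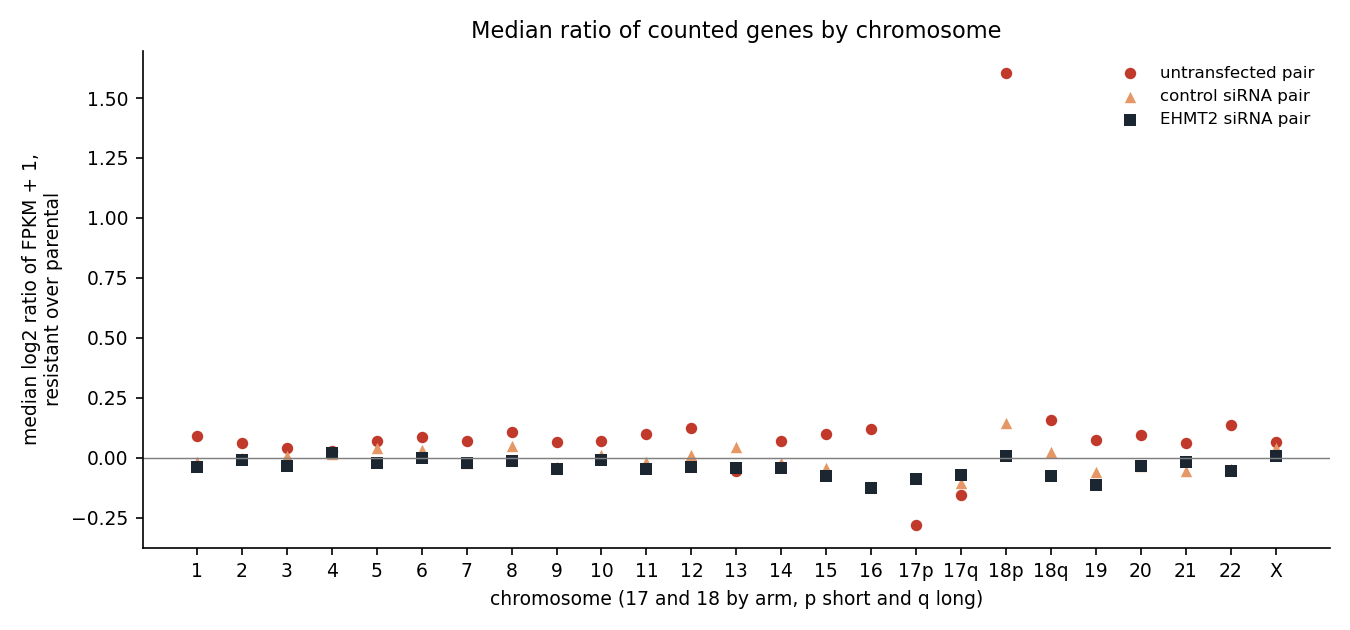
Median log2 ratio of counted genes on each chromosome, with chromosomes 17 and 18 split by arm, in the 3 line pairs. The short arm of chromosome 18 stands at 1.603 in the untransfected pair alone, and both arms of chromosome 17 lie below every other autosome in that pair.

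Of the differences, a minority were shared with the siRNA pairs, which compare cells with the same labels in other libraries. Of the 408 genes higher in the untransfected pair, 33 were also at least 2-fold higher in the control siRNA pair. They were 8.09% of the 408 and 17.8% of the 185 of that pair. The other way, 12 (2.94%) were 2-fold lower there. In the EHMT2 siRNA pair 18 of the 408 were 2-fold higher (4.41%) and 27 lower (6.62%). Of the 460 lower genes, 22 were also 2-fold lower in the control siRNA pair. They were 4.78% of the 460 and 19.8% of the 111 of that pair. The other way, 30 (6.52%) were higher. In the EHMT2 siRNA pair 11 of the 460 were lower (2.39%) and 36 higher (7.83%). Over all genes counted in the control siRNA pair, 1.6% were 2-fold higher and 0.96% lower. In the EHMT2 siRNA pair those shares were 1.54% and 1.55%. By sign alone, 202 of the 408 higher genes (49.5%) were above 0 in the control siRNA pair, and 160 of the 460 lower genes (34.8%) were below 0. Of all 11731 counted genes, 47.9% were above 0 and 51.9% below 0 in that pair, so the share of the higher genes lay near that of all genes and the share of the lower genes under it. In the EHMT2 siRNA pair 41.9% of the higher genes were above 0 and 35% of the lower genes below 0. Over all counted genes these shares were 45.4% and 54.4%. In all 3 pairs 12 genes were 2-fold higher and 8 were 2-fold lower. Those higher in all 3 include the interferon-stimulated gene OAS1, and SCD, INSIG1 and MSMO1 of lipid and sterol metabolism. NRP1, a coreceptor for semaphorins and VEGF, was among them at 6.61 FPKM in untransfected resistant and 1.71 FPKM in parental cells (ratio 1.49), and so were APOBEC3G, an antiviral cytidine deaminase (4.59 and 1.21 FPKM, ratio 1.34), SERPINA1, the protease inhibitor alpha-1-antitrypsin (16.5 and 6.63 FPKM, ratio 1.20), and COL13A1 (23.6 and 5.07 FPKM, ratio 2.02). Those lower in all 3 include PCDH7, ABCC2, ICAM1, HNF4A and ID2, which blocks DNA binding of its dimer partners, at 28.5 and 67.2 FPKM (ratio -1.21). With control siRNA, PCDH7 was at 3.12 FPKM in resistant and 9.77 FPKM in parental cells and ABCC2 at 5.23 and 14.1 FPKM.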

How the data were processed

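Per the labels' protocols, RNA came from the RNeasy mini plus kit, and total RNA was turned into libraries with the TruSeq RNA v2 kit. Tools in the submitters' processing notes are StringTie 2.1.1, HISAT2 2.2.1, cutadapt 4.9 and FastQC 0.12.1, with GRCh38 as the build and no roles or order. The sources used here do not state the annotation release, filters or strand setting. The authors deposited a table of FPKM for each library. Such values are relative to the whole library, so a few abundant messages can move the rest.

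Each table held 19957 rows. Where a symbol was repeated, the row of highest mean was kept, which left 19942 genes, of which 19887 had a GENCODE 29 entry (GRCh38) that gave coordinates and the share of exonic bases covered by other genes. Genes with 25% or more shared are called uncertain. Ratios used a pseudocount of 1, a minimum of 1 FPKM in either library and a 2-fold size, computed with pandas 2.3.3 and numpy 2.4.6 in Python 3.11.15 and checked on simulated data. Arms of chromosomes 17 and 18 were divided at the widest gap between counted genes. Promoter windows and starts are RefSeq's for GRCh38.p14.

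With 1 library per group no test was made. The 59 gene lists, the members and the comparison were chosen with earlier results of these data known. Among genes at 5 FPKM or more in either library, the text names the 15 highest and 15 lowest ratios. It also names the 2 highest and 2 lowest members of the lists described at length, the 10 largest increases and decreases in FPKM, and TYMS, TYMP, DPYD, UMPS, TK1, UPP1, CDKN1A and EHMT2. Some genes that these rules name are not reported here. Other genes were chosen for their role after their values were seen. Alternatives covered the pseudocount, filters, rescaling, quantile normalisation, the fold size, uncertain genes and mitochondrial messages. A further one, without chromosomes 17 and 18, was added after seeing the data.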

Additional observations from a re-analysis of the deposited data

Results flagged for a closer look

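Several results had the opposite direction in the untransfected pair and in both siRNA pairs. The difference was not tested, since each pair holds 1 library per line. Among gene lists, this held for the median ratio of cytosolic ribosomal proteins (-1.07 in the untransfected, 0.58 in the control siRNA and 0.35 in the EHMT2 siRNA pair) and of ATF4 targets (-0.48, 0.93 and 0.71). It held likewise for DNA replication (0.62, -0.50 and -0.37), mitosis (0.49, -0.44 and -0.58), recombination and crosslink repair (0.39, -0.32 and -0.37), DNA methylation (0.35, -0.44 and -0.49), and immediate early and AP-1 genes (-0.35, 0.68 and 0.41).

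Single genes with opposite directions, given as log2 ratios of FPKM + 1 in the same order, were IGFBP6 (3.72, -0.39 and -0.35), TYMS (2.65, -0.59 and -0.76), SYT1 (-4.35, 0.33 and 0.32), KRT23 (-4.30, 0.39 and 1.28), EEF1A1 (-1.47, 0.97 and 0.83), IAH1 (-3.65, 0.75 and 0.59) and SKAP1 (-3.39, 0.58 and 0.58). IAH1 and SKAP1 were listed at 0 in the untransfected resistant library, so their ratios depend on the added 1.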

How the results depend on the processing

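The counts of genes at least 2-fold higher and lower, 408 and 460, became 646 and 705 with a pseudocount of 0.1. At 5 FPKM or more in either library 295 genes were lower. With values rescaled to the same sum, 726 were higher. At a 1.5-fold size the counts were 1388 and 1174, and at a 4-fold size 45 and 68. The other counts stayed within 1.5 times: 350 and 531 after centring on the median, 378 and 459 after quantile normalisation, 345 and 403 without uncertain genes, 490 and 390 without mitochondrial messages before rescaling, and 354 and 408 without chromosomes 17 and 18. The cause was not tested.

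Of 22 gene lists with a median at least 0.3 from that of all genes, 2 changed sign, both on rescaling to the same sum: translation initiation and elongation factors to 0.00845 and amino acid and nutrient carriers to 0.00520. Apart from these, over all lists and settings, 521 medians moved by less than 0.3 and 7 by more. Of the lists whose median lay closer to that of all genes, 36 recomputed medians changed sign. Of the values of named genes, 478 kept their sign and their side of the 2-fold size and 15 did not: 8 of mitochondrial messages, 5 of them after quantile normalisation, and 7 of CDKN1A, UMPS, UPP1 and S100A6. No paired analysis was possible because each group holds 1 library. The depth is unknown, so no counting error can be given, and low FPKM values are the least certain.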

Other observations

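Further gene lists held single members far from all counted genes, whose median ratio was 0.07. The HOX genes had a median ratio of 0.48 over 23 members, with HOXA3 at 6.27 FPKM in resistant and 1.81 FPKM in parental cells (ratio 1.37) and HOXD8 at 1.06 and 3.81 FPKM (ratio -1.23). Tubulins had a median of 0.38 over 12 members, and the 1 that was 2-fold higher, TUBB6 (129 and 35.1 FPKM, ratio 1.85), lies on the short arm of chromosome 18. Splicing factors had a median of 0.26 with 35 of 38 above 0 and none 2-fold apart, and HNRNPA2B1 was the highest at 634 and 345 FPKM (ratio 0.88). Among S100 proteins and annexins, S100A2 was at 19.2 and 4.51 FPKM (ratio 1.88), and S100A4 at 119 and 216 FPKM (ratio -0.85), while S100A4 had ratios of 1.93 and 2.39 in the siRNA pairs. Among semaphorins and their receptors, SEMA3A was at 1.03 and 6.98 FPKM (ratio -1.98). Among targets of TGF-beta, PMEPA1 was at 4.25 and 0.326 FPKM (ratio 1.99). EPAS1, the hypoxia factor HIF-2 alpha, was at 23.5 and 8.24 FPKM (ratio 1.40), above the 5.21 to 8.34 FPKM of the siRNA libraries, and CA12, a target of hypoxia, was listed at 0 in resistant cells against 1.58 FPKM.

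By GC content of the longest transcript, the median ratio lay between 0.05 and 0.09 in all 5 bins of counted genes. By exonic length it lay between 0.03 and 0.06 in the 4 shorter bins and was 0.15 in the longest.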
